A study of Gossypium hirsutum with 2 samples.

Results

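Nuclear genes for proteins of the chloroplast and the mitochondrion made up 124 of the 2111 cotton genes whose promoters carried a peak with GhD53, and 127 of the 2183 peaks. They were chosen by name from the longer of 2 deposited peak lists. A gene was taken where the description of its best protein hit contained the word chloroplastic, mitochondrial or pentatricopeptide, where that hit was not a record of an organelle genome, and where the authors gave the gene no transcription factor family. The last condition left out 2 peaks, those of GH_A02G1769 (NAGS2, an acetyltransferase of arginine synthesis) and GH_A08G2618 (a WHY2-like mitochondrial DNA-binding protein). The latter had 24.5-fold enrichment, a fold above that of every gene kept, and 111 fragments at its summit, a pileup that some kept genes exceeded. The former had 6 fragments and 4.35-fold. Beyond the presence of a peak in the longer list, no measured value entered the rule, which was set with earlier results of these data known. In what follows these 124 are called the organelle-protein genes.

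GhD53 is a D53-type protein of upland cotton (Gossypium hirsutum), from the family of strigolactone signalling repressors. By DNA affinity purification sequencing, a tagged protein expressed in vitro was incubated with a library of naked genomic DNA from fiber, and the fragments it retained were sequenced. There was 1 purified library (IP) and 1 input library, both from fiber of the same species, with no replicate and no purification without the protein, so no spread between replicates can be given and no difference between conditions was tested. The DNA carried no chromatin, and the source gives no strain, age or treatment. How binding by GhD53 and other effects of the purification share in an enrichment cannot be told apart with these libraries.

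Chloroplasts and mitochondria keep small genomes of their own, but nearly all of their proteins are encoded in the nucleus, made in the cytosol and imported through translocases of the organelle envelopes. Many of these nuclear genes serve organelle gene expression. The pentatricopeptide repeat proteins, a very large family in land plants, bind organelle RNA and act in its editing, splicing, processing and translation. In a developing cotton fiber, mitochondria supply respiration and the plastids make fatty acids, amino acids, carotenoids and other precursors. Carotenoids are also the starting material of strigolactones.

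For each peak the authors gave a pileup at the summit and a fold. The scaling of the pileup is not stated. The pileup was read as the number of purified fragments over the summit, since all values are whole. The fold was read as the ratio of the pileup to the local background after 1 was added to both. The authors also gave a q-value, the p-value adjusted for many tests, as its −log10. The background was recovered from pileup and fold on this reading. It stood at its lowest value, 0.608, under most peaks, so that each further fragment raised the fold by 0.622 and many genes share exactly the same values. A pileup of 5 on this background is 3.73-fold with a −log10 q of 1.51, and a pileup of 4 is 3.11-fold with a −log10 q of 0.917, which is above a q of 0.05. The total depth of the libraries is not known from the files. The intervals given for a pileup are exact Poisson 95% intervals, which cover counting error only, and since a summit is the highest point of a called peak they do not correct for its selection.

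The organelle-protein genes as a whole had low peaks, like the rest of the list. Their median pileup was 5 fragments (range 4 to 167) and their median fold 3.73 (range 2.18 to 21.5), and the medians over all 2183 peaks were also 5 and 3.73. A pileup of 5 was the most frequent, at 53 of the 127 peaks, followed by 4 at 23 peaks and 6 at 21 peaks. In 103 peaks, or 81.1% (Wilson 95% interval 73.4 to 87.0), the q-value was at most 0.05, where it was so in 79.0% of all peaks. The 24 others were the 23 peaks with a pileup of 4 and the peak of GH_A06G1505, which had a pileup of 5 on a background of 1.02. A fold of 5 or more was reached by 18 peaks, or 14.2% (9.16 to 21.3), beside 12% of all peaks. Also present in the shorter list were 47 peaks at 46 genes, or 37.0% (29.1 to 45.7), beside 34.4% of all peaks, and 46 of these had the same summit, pileup and fold there. The shorter list comes from the same 2 libraries and is no second measurement. Each of these shares lay near that of the whole list.

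**Figure D1:**
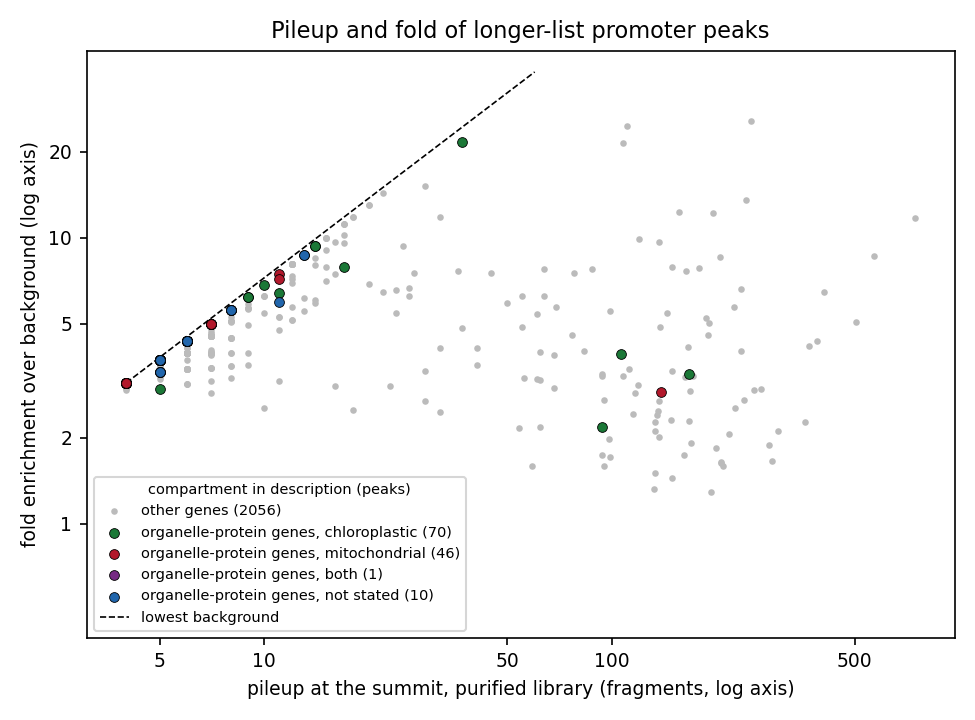
Each point is a promoter peak of the longer list, with the pileup in the purified library (fragments, log axis) across and the fold enrichment over background (log axis) upward; coloured points are organelle-protein genes by the compartment in their description, grey points other genes, and the dashed line marks the lowest background. Most coloured points sit on or just under the line between 4 and 14 fragments, where many share 1 position; GH_A04G1309 stands at 37 fragments and 21.5-fold, and 4 peaks lie far to the right at 94 to 167 fragments with folds of 2.18 to 3.93.

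The label was checked against annotation that the choice did not use. Of the 124 genes 89 had gene ontology terms, and 75 of these (84.3%, Wilson 95% interval 75.3 to 90.4) had a term naming the plastid, chloroplast, thylakoid or mitochondrion. Among the genes with terms that were neither chosen nor records of an organelle genome, 130 of 807 (16.1%) had one. The pentatricopeptide repeat genes were the exception, with such a term at 5 of 15 genes, against 70 of 74 for the remaining organelle-protein genes. The terms too rest on similarity, so the annotations are not independent. The chosen genes were also long for the list, with a median span of 2522 bp from start to end where that of all genes was 1641 bp.

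For 7 of the genes the description names a gene that organelle genomes encode. GH_D03G0876 is described as the beta subunit of the chloroplast ATP synthase, and GH_A08G0984, GH_A13G1572 and GH_D09G0495 as subunit H of the chloroplast NAD(P)H-quinone oxidoreductase; both subunits are normally encoded in the chloroplast genome itself. GH_A01G1583, GH_A13G1497 and GH_A02G0425 are named after AtMg00810 and AtMg00820, open reading frames of the Arabidopsis mitochondrial genome. The span of these 7 genes had a median of 484 bp (361 to 1891 bp). Without them the share of peaks at 5-fold or more was 14.3% and the median fold stayed at 3.73. In 3 genes the authors' KEGG entry went against the description: a disease resistance protein RPS2 for GH_A01G1583, an ATP synthase subunit for the pentatricopeptide repeat gene GH_A13G1608, and a 5-oxoprolinase for GH_D12G2596.

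With the WHY2-like gene left out, the strongest promoter peak by fold was that of GH_A04G1309, a FAD synthetase 2-like gene; the enzyme makes the flavin cofactor FAD. Its peak on chromosome A04 (82578230 to 82578545, in the coordinates of the authors' files, whose genome build is not given in the sources used here) was centred 1147 bp upstream of the start site. The pileup was 37 fragments (interval 26.1 to 51.0) over a background of 0.764, which gave 21.5-fold and a −log10 q of 44.5. The intervals of the other 17 peaks of 5-fold or more all begin below 10 fragments.

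The next folds belonged to a pair of enzymes of central and redox metabolism. GH_A09G2416 encodes a plastid pyruvate kinase, which makes pyruvate at the end of glycolysis, and GH_A11G2416 a glutathione synthetase, which completes the antioxidant glutathione. Both had a pileup of 14 (7.65 to 23.5) and 9.33-fold, with peaks centred 1699 bp and 1186 bp upstream. GH_A12G0885, an FKBP13-like peptidyl-prolyl isomerase of the thylakoid lumen, and GH_D05G3727, a pentatricopeptide repeat gene, followed with a pileup of 13 (6.92 to 22.2) and 8.71-fold each, at 936 bp and 1076 bp. GH_D09G1885, a peptidyl-tRNA hydrolase that recycles stalled tRNAs, had more fragments, 17 (9.90 to 27.2), but a background of 1.27 and so 7.92-fold. These pileup intervals overlap one another, so that the order among the 5 genes is not resolved at this depth.

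Mitochondrial genes stood next, and the lower part of the ranking was again mixed. GH_A10G0089, a mitochondrial pyruvate carrier 4-like gene, whose product takes pyruvate into the matrix, had 11 fragments and 7.46-fold in a peak of 907 bp, where the median length was 176 bp. GH_A13G1649, for subunit d of the mitochondrial ATP synthase, had 11 fragments and 7.17-fold. GH_D03G0777 reached 6.84-fold (10 fragments); it is named after Arabidopsis At1g15510, an editing factor of chloroplast transcripts. The short subunit H gene GH_D09G0495 had 6.41-fold (11 fragments). GH_A02G1598, a stress enhanced protein 2-like gene, and GH_A07G2360, an OSB2-like organellar single-stranded DNA-binding protein, had 9 fragments and 6.22-fold each. The pentatricopeptide repeat gene GH_A10G0698 had 5.94-fold, and 5 genes closed the set at 8 fragments and 5.60-fold: the nudix hydrolase GH_A06G1390, the lycopene epsilon cyclase GH_A07G0130, the aarF-type kinase GH_D06G1254, the pentatricopeptide repeat gene GH_D08G2406 and the protease Do-like 2 gene GH_D12G0078. All 18 were in the shorter list as well. Over the whole list, 88 of 96 peaks with 8 fragments and 139 of 142 with 9 to 20 were also there. Presence in both lists thus largely followed the pileup and adds little to it.

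**Figure D2:**
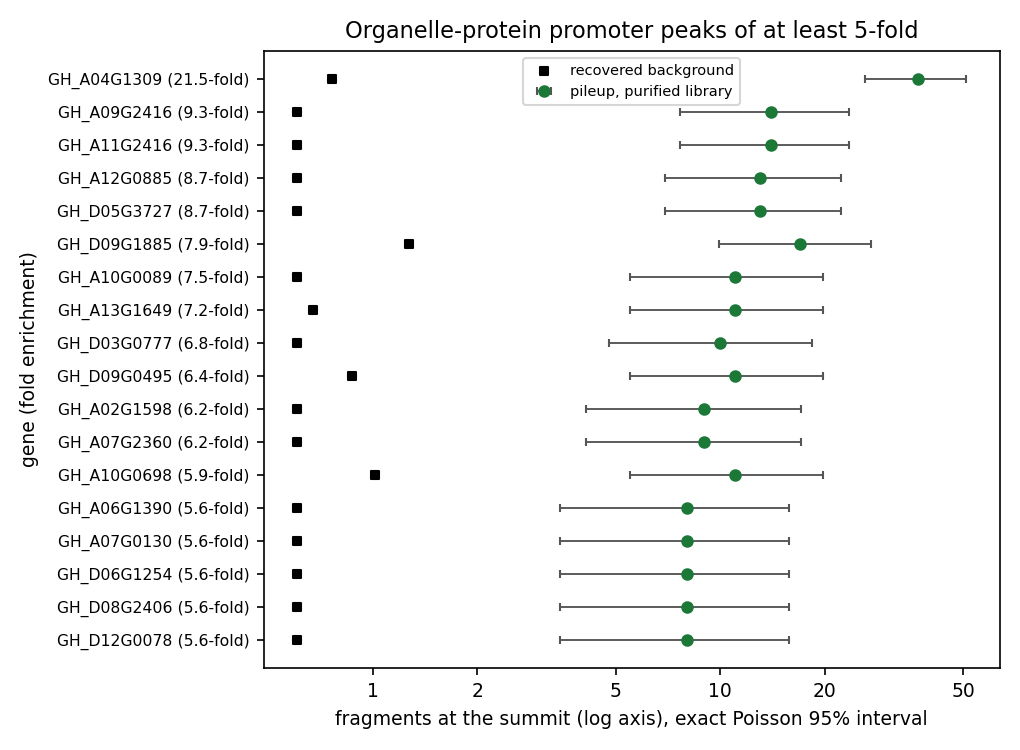
Fragments at the summit (log axis) for the 18 organelle-protein peaks of 5-fold or more, ordered by fold, with circles for the pileup in the purified library, bars for its exact Poisson 95% interval and squares for the recovered background. The interval of GH_A04G1309, 26.1 to 51.0, touches only that of GH_D09G1885 (9.90 to 27.2), and the intervals of the other 17 overlap.

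By compartment, 68 genes were described as chloroplastic, 45 as mitochondrial and 1 as both, and 10 pentatricopeptide repeat genes had no compartment. Chloroplastic genes had 12 of 70 peaks at 5-fold or more (17.1%) and mitochondrial genes 3 of 46 (6.52%); the median fold was 3.73 in each. The share of peaks found in both lists was 34.3% for chloroplastic and 39.1% for mitochondrial genes, the other order. The difference between the compartments was not tested.

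**Figure D3:**
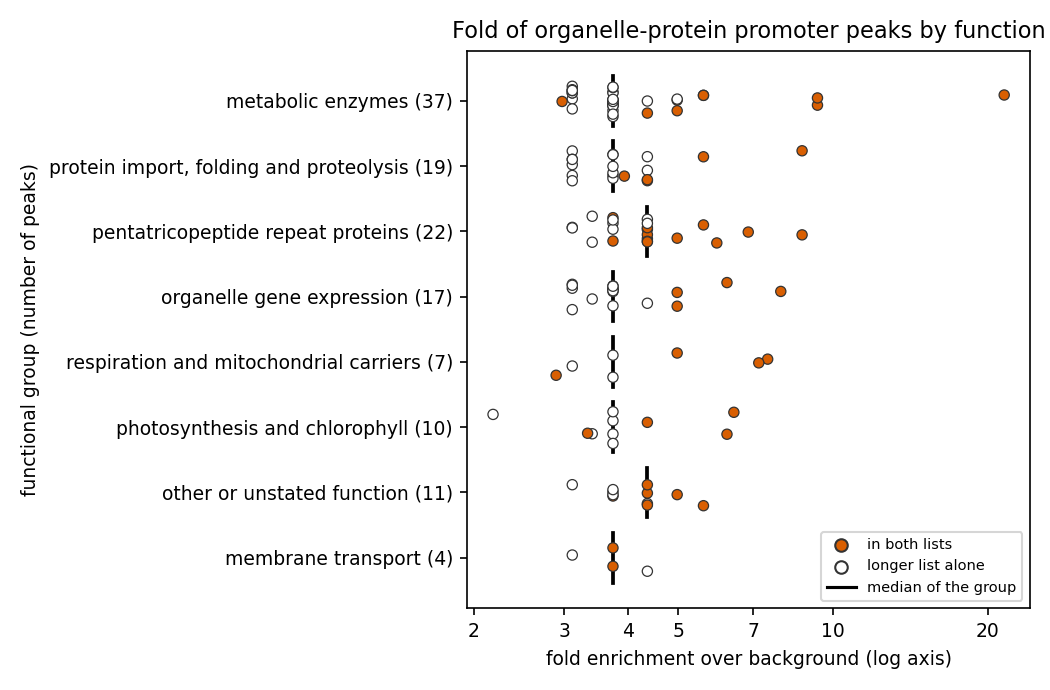
Fold enrichment (log axis) of each organelle-protein promoter peak by functional group, with the number of peaks in brackets; filled points were in both lists, open points in the longer list alone, and vertical bars mark the group medians. The medians are 3.73 or 4.35 in every group. Groups include 26 genes moved by hand after their values were seen.

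Pentatricopeptide repeat proteins were the largest single family, with 22 peaks at 21 genes. Of these peaks 20 had a q-value of 0.05 or lower, 4 had 5-fold or more, and the median was 6 fragments and 4.35-fold, 1 fragment above the list as a whole. Of the 21 genes 11 were in both lists. GH_D05G3727, GH_D03G0777, GH_A10G0698 and GH_D08G2406 led, and GH_D10G0960 followed with 7 fragments and 4.98-fold. None of the 9 peaks at genes called mitochondrial reached 5-fold, where 1 of 3 at chloroplastic genes and 3 of 10 at genes with no compartment did. The lowest were GH_D11G3323, whose peak also lay in an intron of its neighbour, and the nearer peak of GH_D07G0223, with 4 fragments each.

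Of the 17 other genes for organelle gene expression, 13 had a q-value of 0.05 or lower (76.5%, beside 79.0% of all peaks). In both lists were 5 (29.4%, beside 34.4%). Besides GH_D09G1885 and GH_A07G2360, the glycine-rich RNA-binding protein 4-like gene GH_A11G3157 and the mitochondrial ribosomal protein L17 gene GH_D08G1559 had 7 fragments and 4.98-fold. The aminoacyl-tRNA synthetases, which load tRNAs with amino acids, were present with GH_D10G1511 for phenylalanine (4.35-fold) and GH_A04G1220 for glycine (3.73-fold). Plastid ribosomal proteins L3 (GH_A13G1870) and S1 (GH_D02G0610), the editing factor MORF9 (GH_A08G0246) and the ribosome-binding factor A (GH_A13G0988) all had 5 fragments and 3.73-fold. The plastid RNA polymerase gene GH_A01G1542, of the single-subunit phage type, had 5 fragments over a background of 0.764 and 3.40-fold. Iojap (GH_A04G0549), the ribosomal proteins S13 (GH_A06G0452) and L54 (GH_D10G0922), and elongation factor G-2 (GH_D11G0833) had 4 fragments, so their peaks did not reach a q of 0.05.

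Photosynthesis and chlorophyll accounted for 10 peaks at 9 genes, all with a q-value of 0.05 or lower. The Wilson interval of this share, 72.2 to 100%, holds the 79.0% of all peaks. Of the 10 peaks, 2 were those of GH_D03G0876, on high backgrounds of 49.4 and 42.6. Genes for light-harvesting proteins were GH_A02G1598 (6.22-fold), GH_D07G2108 for chlorophyll a-b binding protein 151 (3.73-fold) and GH_A04G1359 for CP24 of photosystem II (3.40-fold). Chlorophyll metabolism was represented at both ends, with protochlorophyllide reductase of the synthesis pathway (GH_D05G3793, 3.73-fold) and pheophorbide a oxygenase of the breakdown pathway (GH_A07G1151, 4.35-fold and 402 bp upstream). The 3 subunit H genes differed among themselves: GH_D09G0495 had 11 fragments and was in both lists, whereas GH_A08G0984 and GH_A13G1572 had 5 each in the longer list alone.

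Respiration and mitochondrial carriers had 7 genes, of which 6 had a q-value of 0.05 or lower and 4 were in both lists. The ATP synthase subunit d genes GH_A13G1649 (11 fragments, 7.17-fold, 1319 bp upstream) and GH_D13G1564 (7 fragments, 4.98-fold, 1895 bp) lie on same-numbered chromosomes of the A and D subgenomes. Complex I was present with the iron-sulfur protein 1 gene GH_A07G1826 (5 fragments, 3.73-fold) and the flavoprotein 2 gene GH_A08G0509, and complex II with the succinate dehydrogenase flavoprotein gene GH_D03G0150 (5 fragments, 3.73-fold). The carrier gene GH_A08G0489 had 4 fragments.

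Genes for protein import, folding and proteolysis had 19 peaks at 18 genes. Of the peaks, 13 had a q-value of 0.05 or lower (68.4%, beside 79.0% of all peaks). The 8 genes of chloroplast import and targeting had 4 to 6 fragments and 3.11-fold to 4.35-fold, a range that held 75.1% of all peaks by fragments. They spanned the route of an imported protein: the outer envelope receptor type TOC90 (GH_D08G1006, 3.73-fold), the inner envelope translocon proteins TIC110 (GH_A03G0342, 3.11-fold) and TIC32, and the thylakoid targeting proteins TATB (GH_A09G0505, 4.35-fold), FtsY (GH_A11G0888, 3.73-fold) and SRP43 (GH_D02G2477, 4.35-fold). TIC32 had 3 genes, GH_D03G1697 with 6, GH_A09G1743 with 5 and GH_D04G1328 with 4 fragments. The peak given for GH_D02G2477 was centred downstream of where that gene starts, in the promoter of its neighbour GH_D02G2478. The mitochondrial inner membrane translocase was present with TIM50 (GH_A08G0289, 3.73-fold) and TIM14-1 (GH_A05G3608, 3.11-fold), and complex assembly with a BCS1-like chaperone (GH_A03G2205, 3.73-fold).

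Among the proteases of the same group, GH_D12G0078 (protease Do-like 2) had 2 peaks, one of 8 fragments and 5.60-fold centred 1425 bp upstream and one of 6 fragments and 4.35-fold at 1789 bp, both in both lists. The mitochondrial FTSH 4 gene GH_D13G2145 had 3.73-fold. The ClpP5 (GH_A11G1140), CLPS1 (GH_A13G0542) and Do-like 10 (GH_D12G0742) genes had 4 fragments each.

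Metabolic enzymes were the largest group, 37 genes with 1 peak each. Of these, 28 had a q-value of 0.05 or lower (75.7%, beside 79.0% of all peaks). A fold of 5 or more was reached by 5 (13.5%, beside 12%), and 10 were in both lists (27.0%, beside 34.4%). After the 3 strongest, GH_A04G1309, GH_A09G2416 and GH_A11G2416, folds were at most 5.60. The carotenoid pathway was represented by phytoene desaturase, an early step (GH_A10G1426, 5 fragments, 3.73-fold, 519 bp upstream), by lycopene epsilon cyclase, which opens the branch to lutein (GH_A07G0130, 8 fragments, 5.60-fold, 693 bp), and by carotene epsilon-monooxygenase of the same branch (GH_A11G3687, 5 fragments, 3.73-fold, 1066 bp).

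Plastid fatty acid synthesis was present at 3 enzymes, with 4 or 5 fragments each: the carboxyl transferase alpha subunit of acetyl-CoA carboxylase (GH_A13G1007, 4 fragments), 3-oxoacyl-ACP synthase II (GH_D07G0869, 5 fragments) and stearoyl-ACP desaturase (GH_A05G3296, 4 fragments). With the acyl-CoA thioesterase GH_A10G1581 and the glycerol-3-phosphate dehydrogenase GH_A05G4317, 2 of 5 lipid genes had a q-value of 0.05 or lower and 0 were in both lists. The share at that q-value was 40% (Wilson interval 11.8 to 76.9), below the 79.0% of all peaks. For the share in both lists the interval, 0 to 43.4%, holds the 34.4% of all peaks. The set has only 5 genes, and no difference was tested. The 7 amino acid genes had 4 or 5 fragments, as did 54.8% of all peaks. They included ketol-acid reductoisomerase (GH_A06G1505, 2.97-fold) and dihydroxy-acid dehydratase (GH_D02G0296, 3.11-fold), neighbouring steps of branched-chain amino acid synthesis, and the plastid glutamine synthetase GH_A02G0277 (3.11-fold).

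Genes of sulfur and iron-sulfur metabolism, brought together here from the metabolic enzymes and the membrane transport genes, had 5 to 14 fragments. All but glutathione synthetase had 5 to 7. Such pileups were common, since of all 2183 peaks 765 had 5 fragments, 444 had 6, 189 had 7 and 142 had 9 to 20. The frataxin and cysteine desulfurase genes were among those moved by hand after their values were seen. Iron-sulfur clusters are built in mitochondria from sulfur that cysteine desulfurase releases, with the help of frataxin. The genes for both, GH_D05G2582 and GH_A03G1852, had 7 fragments and 4.98-fold and were in both lists, and the ABCB25-type transporter of the inner mitochondrial membrane, which serves the cytosolic clusters, was in both lists at 5 fragments and 3.73-fold (GH_A03G0324). In sulfur assimilation and glutathione metabolism, adenylyl-sulfate kinase (GH_A11G2280) had 5 fragments, serine acetyltransferase (GH_A13G1575) and lactoylglutathione lyase (GH_A06G1016) had 6, and glutathione synthetase had 14. Of the remaining enzymes, the cytokinin synthesis gene IPT3 (GH_A08G0757) had 5 fragments and 3.73-fold, as did each of 3 polyphenol oxidase genes, and one of those, GH_D06G2351, had the peak nearest to a start site of all 124 genes, 105 bp upstream.

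The 4 membrane transport genes had 4 to 6 fragments. The mitochondrial calcium uniporter gene GH_D10G1017 was highest with 4.35-fold, ahead of GH_A03G0324 and the anion transporter GH_D09G1743 (3.73-fold each) and the DETOXIFICATION 46 gene GH_A03G2228 (3.11-fold). The 11 genes of other or unstated function had a median fold of 4.35, and 6 of them were in both lists, among them the 3 named after mitochondrial open reading frames. Their share in both lists was 54.5% (Wilson interval 28.0 to 78.7), and the interval holds the 34.4% of all peaks.

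A pileup above 20 was found at 5 organelle-protein peaks (3.94%, beside 5.31% of all peaks), that of GH_A04G1309 and 4 others that stood on a high background. GH_D03G0876 (ATP synthase beta subunit) had peaks of 167 and 94 fragments, GH_A08G0509 (complex I flavoprotein 2) a peak of 139 and GH_A05G0906 (the plastid protease FTSH 7) a peak of 106. Their backgrounds were 49.4, 42.6, 47.4 and 26.2, so the folds were 3.33, 2.18, 2.89 and 3.93. The remaining 123 organelle-protein peaks had a background of at most 1.27. A background above 10 thus stood under 4 peaks (3.15%), beside 4.12% of all peaks. Among the 49 peaks whose best hit was a record of an organelle genome, the median pileup was 137, the median background 42.9 and the median fold 2.98. The nearest of those peaks to GH_D03G0876 was 2351 bp away, at GH_D03G0877 (photosystem I P700 apoprotein A1), with a background of 57.8. For GH_A05G0906 the nearest was 311546 bp away, and chromosome A08 held no such peak. What part organelle DNA in the libraries has in these 4 peaks was not tested.

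Peaks were more frequent farther upstream, as in the whole list. Of the 126 peaks centred upstream of their gene, all within 2000 bp, 15 were in the 500 bp next to the start site (11.9%, interval 7.35 to 18.7), 30 (23.8%) in the second 500 bp, 36 (28.6%) in the third and 45 (35.7%, 27.9 to 44.4) in the farthest. The shares over all peaks were 13.8%, 25.4%, 29.4% and 31.4%, each inside the interval of the organelle-protein genes. The median distance was 1245 bp, where that of all peaks was 1197 bp. Iojap (GH_A04G0549), at 140 bp, came after GH_D06G2351 as the nearest, and GH_D05G2822, a pentatricopeptide repeat gene, at 1998 bp, and GH_D06G1254, at 1978 bp, were the farthest.

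**Figure D4:**
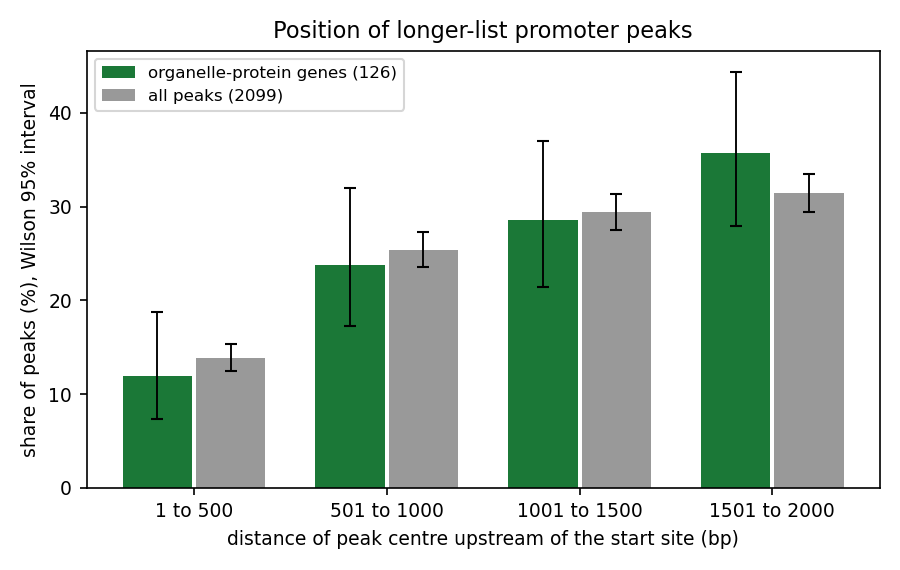
Share of peaks (%) in each 500 bp of distance upstream of the start site, for 126 organelle-protein peaks and for the 2099 peaks of the whole list within the same 2000 bp; bars start at 0 and error bars are Wilson 95% intervals. Both rise with distance, from 11.9% to 35.7% and from 13.8% to 31.4%, and the intervals overlap in each bin.

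Of the 18 peaks of 5-fold or more, 14 lay beyond 1000 bp and 1 within 500 bp, that of GH_D09G0495 at 305 bp. The shares were 77.8% (Wilson interval 54.8 to 91.0) and 5.56% (0.988 to 25.8). Both intervals hold the shares over all peaks, 60.8% and 13.8%. The median fold was 3.73 in each 500 bp of distance.

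The peaks were spread over all 26 chromosomes, with 1 to 9 on each. The A subgenome held 72 organelle-protein genes and the D subgenome 52, where the whole list had 1044 and 1061 genes. The share at 5-fold or more was 15.3% on A and 12.7% on D, beside 12.8% and 11.3% of all peaks there. In 2 pairs, organelle-protein genes had the same description and lay on same-numbered chromosomes of the 2 subgenomes, the ATP synthase subunit d pair given above and the nudix hydrolase 15 genes GH_A06G1390 (8 fragments, 5.60-fold, 981 bp upstream) and GH_D06G1513 (5 fragments, 3.73-fold, 1544 bp). In both pairs the A copy had more fragments and the nearer peak, and the exact Poisson intervals of the copies overlap. Besides GH_D12G0078 and GH_D03G0876, GH_D07G0223 was the third gene with 2 peaks, of 6 fragments at 1214 bp and 4 fragments at 395 bp.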

How the data were processed

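The sources are 2 promoter peak lists that the authors deposited for the purified library against the input library, 1 library each; groups follow the fraction in the labels. BWA, ChIPseeker and deepTools 2.5.4 appear in the submitters' processing notes. Which tool called peaks, on which genome build and at what threshold, is not stated in the labels or headers. Per the file headers, the columns are a pileup, a fold enrichment, and the p-value and the q-value as −log10, all made by the authors. The scaling of the pileup is not stated. It was read as unscaled fragments since its values are whole, and the fold as (pileup + 1) / (background + 1). Depth is known only as pileup.

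Python 3.11.15, pandas 2.3.3 and scipy 1.17.1 were used. Background was computed as (pileup + 1) / fold − 1. Lists were matched by an overlap of 1 bp. Distances are the deposited ones, to the peak centre. With 1 library per fraction no test was made; Wilson 95% intervals of shares and Poisson intervals of pileups reflect counting error alone. Genes were grouped by words in their descriptions, and 26 genes were then moved by hand after their values were seen. Genes named are the 12 of highest fold, those with a pileup above 20, the 3 highest of each group, A and D pairs, genes with several peaks, the 2 nearest and the 2 farthest; other named genes were chosen after their values were seen. Members and lists were chosen with earlier results of these data known. The overlap and background steps were tested on simulated data.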

Additional observations from a re-analysis of the deposited data

How the results depend on the processing

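Over 55 combinations of a result and an alternative setting, 48 values stayed inside the 95% interval of the main value (Wilson for a share, by ranks for a median) and 7 moved out of it. All 7 came from the shorter list or the stricter q-value. The other alternatives kept at least 103 of the 127 peaks, so their values had little room to move. In the shorter list (47 peaks) the median fold was 4.98, the median pileup 7, the share with a q-value of 0.05 or lower 100% and the share at 5-fold or more 38.3%, the last added after seeing the data. With a q-value of 1e-05 or lower (17 peaks) the median fold was 6.84, the median pileup 13 and the share in both lists 94.1%. A stricter q-value selects on height by construction. The lowest −log10 q in the shorter list was 1.31, under a q of 0.05, so its share of 100% was fixed in advance. Of all longer-list peaks, 0 of 431 with 4 fragments were also in the shorter list, 103 of 765 with 5 and 88 of 96 with 8. Why the shorter list leaves peaks out was not tested. The median distance stayed between 1237 and 1375 bp in its 11 alternatives. Alternatives added after seeing the data, without the 7 genes named after organelle-encoded genes and without backgrounds above 10, moved none of the 6 results. With genes grouped by the words alone, also added after seeing the data, the group medians lay between 3.73-fold and 4.35-fold. No paired analysis was possible because each fraction has 1 library. With 4 to 8 fragments at most summits, a gene missing from the lists is not shown to be unbound, and neighbouring folds cannot be ranked.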
